A study of Mus musculus with 24 samples.

Results

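Messenger RNA of 10 calcium handling genes was measured in mouse thoracic aorta at a single time point, after chronic feeding of COX-2 inhibitors. The genes were chosen by symbol from the deposited count table: the pumps Atp2a2 and Atp2a3 and their regulator Pln, the store release channels Itpr1, Ryr2 and Ryr3, the voltage-gated entry channels Cacna1c and Cacna1h, and the store-operated entry genes Stim1 and Orai1. They are 10 of 25941 genes in the table, and all 10 passed the low-count filter that left 14451 genes for testing. Each of the 24 libraries was made from thoracic aorta of a wild-type C57BL/6 background; the donors were adult males, 10 to 12 weeks old, and each group had 8 libraries. A first group ate chow with celecoxib (100 mg/kg/day), a second ate chow with rofecoxib (50 mg/kg/day), and control mice ate chow without drug, each for 3 weeks. All tissue was taken at zeitgeber time 11, in hours after lights on. The 2 drugs were given at different doses, so every value of celecoxib against rofecoxib compares these doses as well as these molecules.

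Contraction of arterial smooth muscle follows the calcium concentration in the cytosol. SERCA pumps return calcium to the sarcoplasmic reticulum, and phospholamban (Pln) holds the pump back until it is phosphorylated. IP3 receptors and ryanodine receptors let calcium out of that store, voltage-gated channels in the plasma membrane let it in upon depolarisation, and STIM proteins sense an emptied store and open Orai channels. Celecoxib has been described to inhibit the SERCA pump protein in cultured cells apart from its action on COX-2; the measurements here are of messenger RNA only.

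Total counts were 21652432 to 21687906 per library, a range of 0.164%, and TMM scaling factors were 0.959 to 1.03. The smooth muscle genes Acta2 and Myh11 were abundant in every library, at 14082 CPM or more and 7933 CPM or more, where CPM is the count as a share of the library total on the usual counts-per-million scale after TMM scaling. The skeletal muscle channel and pump genes Ryr1 and Atp2a1 reached at most 0.370 and 0.275 CPM. Several libraries stood apart. Rofecoxib 2 had a summed level of 820 CPM over 17 cardiac muscle genes, against 397 CPM or less in the other libraries, with Myh6 at 207 CPM. Rofecoxib 7 and rofecoxib 8 had the lowest GC slopes, -2.27 and -2.75, where the GC slope is the change in log2 CPM per unit of GC fraction across 11999 genes. Control 6 had the highest brown and white adipocyte marker sums, 1942 CPM over 14 genes and 9098 CPM over 15 genes. The mean GC slope was 0.77 ± 0.90 with celecoxib, -1.09 ± 0.96 with rofecoxib and 0.31 ± 0.83 for control chow (SD over 8 libraries a group). It was lower with rofecoxib than in controls (exact permutation test, two-sided, adjusted p = 0.00932) and higher with celecoxib than with rofecoxib (adjusted p = 0.00513), and did not pass for celecoxib against control (adjusted p = 0.298). The part of GC content in the gene differences was not tested beyond the corrected fits given beside them.

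The 10 genes spanned more than 3 orders of magnitude in level per length. Length here merges all annotated exons of a gene, so the order and the shares within families depend on that annotation. Per kilobase of exon, mean control levels were 154 CPM for Atp2a2, 34.9 for Atp2a3, 16.004 for Itpr1, 9.40 for Stim1, 6.15 for Orai1, 5.41 for Pln, 3.80 for Cacna1c, 1.68 for Ryr2, 1.38 for Cacna1h and 0.0466 for Ryr3. In control libraries the ranges of Orai1 and Pln, of Pln and Cacna1c, and of Ryr2 and Cacna1h overlapped, and the other neighbours in that order were separate. With rofecoxib the order of Orai1 and Pln was the other way round, at 4.72 and 6.74 CPM per kilobase. Atp2a2 stood at the 98.4th percentile of all tested genes by level per length, and Ryr3 at the 0.270th.

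**Figure D1:**
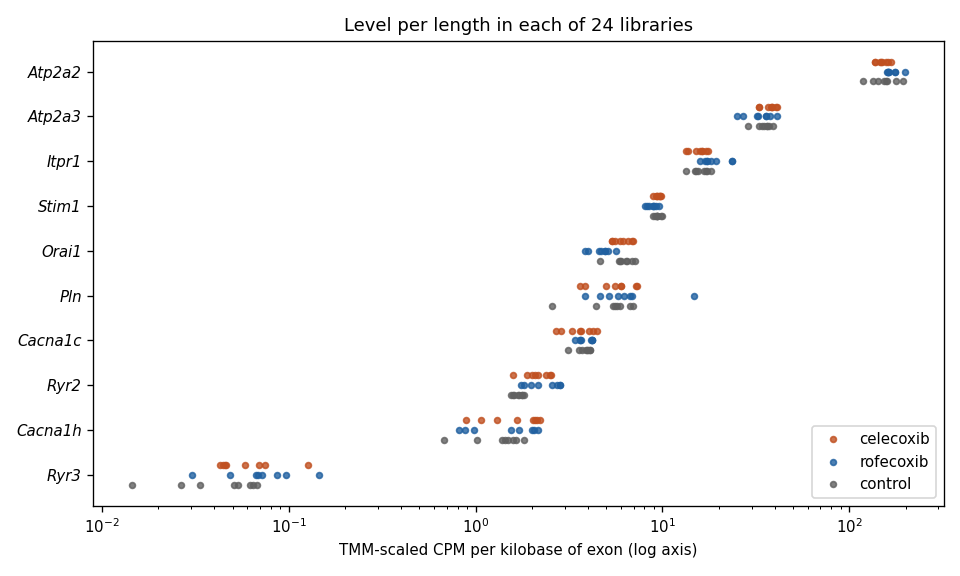
TMM-scaled CPM per kilobase of exon on a log axis for the 10 genes, 1 point per library, coloured by group, with celecoxib above rofecoxib and control. Atp2a2 lies between 118 and 199 in all 24 libraries and Ryr3 between 0.0145 and 0.145, and 1 rofecoxib library stands alone for Pln at 14.8.

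Against control, no gene of the 10 passed an adjusted p of 0.05 with celecoxib in edgeR, where 1.41% of all tested genes passed (0.913% higher, 0.498% lower). Ryr2 alone had an unadjusted p under 0.05 there. DESeq2 called 1 of the 10, where 481 of all 14451 tested genes passed, and limma-voom 0, where 169 passed. With rofecoxib, Ryr2 was higher and Orai1 lower, 2 of 10 where 5.3% of all genes passed (2.43% higher, 2.87% lower). Between the drugs, Itpr1 was lower and Stim1 and Orai1 were higher with celecoxib, 3 of 10 where 22.7% of all genes passed (11.5% higher, 11.2% lower). In no comparison did the groups of any of the 10 separate without overlap, as they did for 0.298%, 0.567% and 1.67% of all tested genes in the comparisons as ordered here. Atp2a2, Atp2a3, Pln, Ryr3, Cacna1c and Cacna1h passed in no comparison. The same 8 control libraries serve both drug contrasts, so these contrasts are not independent. The median log2 fold change of the 10 genes was 0.02 for celecoxib and 0.13 for rofecoxib against control and -0.11 for celecoxib against rofecoxib, beside medians of -0.01, -0.00 and -0.00 over all tested genes. Tests are edgeR's quasi-likelihood test with Benjamini-Hochberg adjustment over all tested genes, and a log2 fold change is given with its standard error. In whole aorta, fewer cells of a type and less RNA per cell cannot be told apart.

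**Figure D2:**
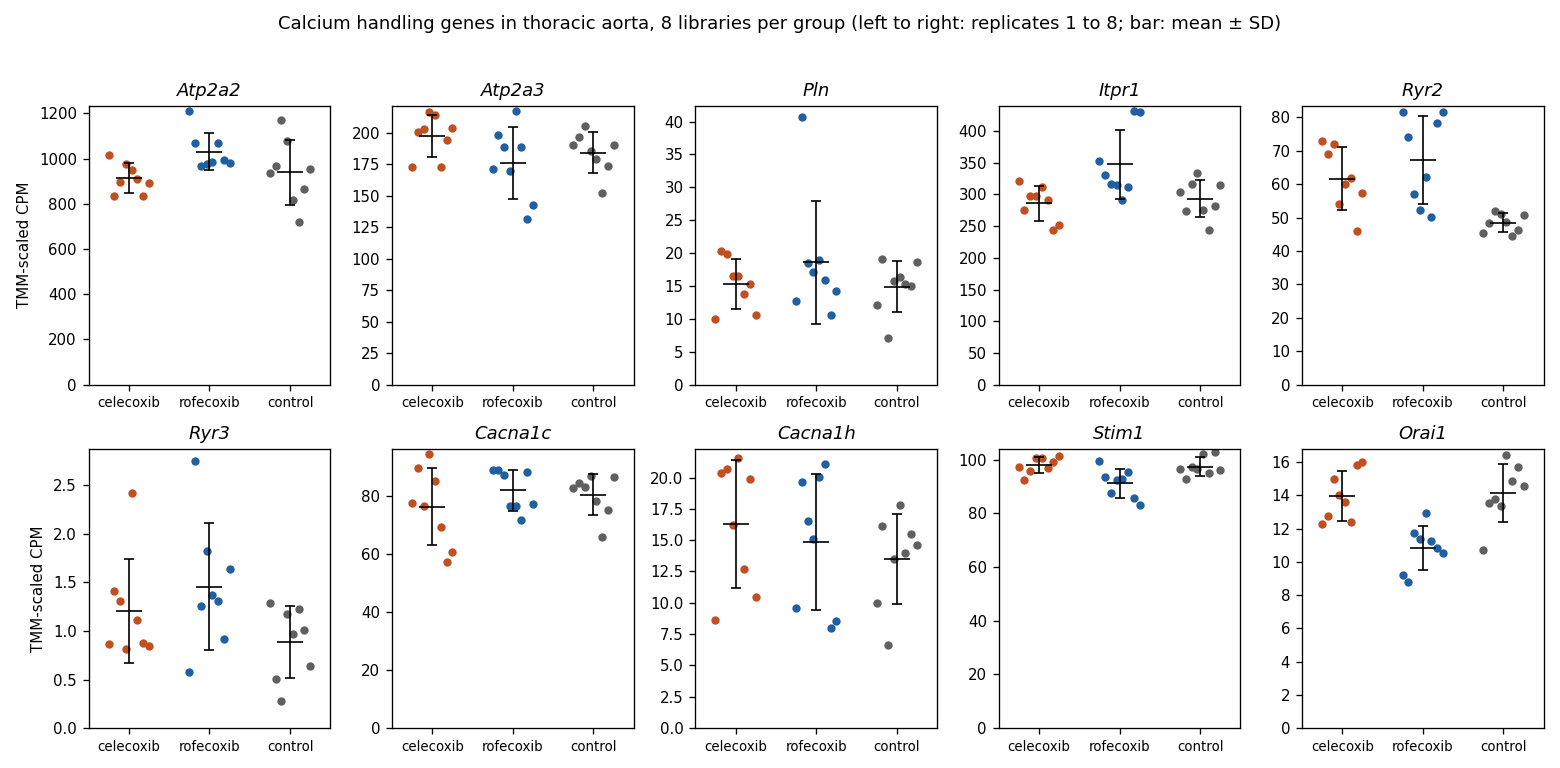
TMM-scaled CPM of each gene in every library (y axis from 0), with celecoxib, rofecoxib and control from left to right, replicates 1 to 8 in order within a group, and bars for mean ± SD. Ryr2 in controls lies within 44.4 to 52.1 while both drug groups spread upward, and Orai1 with rofecoxib lies between 8.80 and 12.95.

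Atp2a2 encodes SERCA2, the main pump of arterial smooth muscle, and lies on chromosome 5 (mm9, 122903329 to 122952385, minus strand). Its lowest, median and highest levels were 834, 903 and 1016 CPM with celecoxib, 967, 989 and 1209.6 CPM with rofecoxib and 717, 946 and 1172 CPM in controls. The 3 ranges overlapped, and controls were the most variable group, with a coefficient of variation of 15.3% against 7.10% with celecoxib and 8.02% with rofecoxib. The log2 fold change was -0.04 ± 0.08 for celecoxib against control (adjusted p = 0.837) with a 95% interval of -0.19 to 0.11. For rofecoxib against control it was 0.14 ± 0.08 (adjusted p = 0.247), with all 8 rofecoxib libraries above the control mean. Celecoxib against rofecoxib gave -0.17 ± 0.08 (adjusted p = 0.0972), with 6 of 8 celecoxib libraries below every rofecoxib library, and this passed where only those groups were fitted (adjusted p = 0.0327). SERCA2 made up 80.03% ± 1.81 of summed SERCA level per kilobase with celecoxib, 83.6% ± 2.40 with rofecoxib and 81.4% ± 1.29 in controls.

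Atp2a3 encodes SERCA3, a pump of lower calcium affinity known mainly from endothelium and blood cells, and lies on chromosome 11 (mm9, 72774469 to 72806748, plus strand). It measured 173, 202 and 217 CPM (lowest, median, highest) with celecoxib, 132, 180 and 217 CPM with rofecoxib and 152, 188 and 205 CPM in controls. All ranges overlapped, and rofecoxib 7 and rofecoxib 8, at 132 and 143 CPM, were below every other library. The log2 fold change was 0.10 ± 0.08 for celecoxib and -0.07 ± 0.08 for rofecoxib against control (adjusted p = 0.558 and 0.633), and 0.17 ± 0.08 for celecoxib against rofecoxib (adjusted p = 0.150). Without rofecoxib 7 and rofecoxib 8, the last became 0.06. The log2 ratio of Atp2a3 to Atp2a2 per kilobase averaged -2.01 ± 0.17 with celecoxib, -2.36 ± 0.25 with rofecoxib and -2.13 ± 0.12 on control chow.

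Pln encodes phospholamban and lies on chromosome 10 (mm9, 53057290 to 53066007, plus strand), where its exons overlap those of Gm9766 on the other strand, so its counts may hold reads of that gene. It measured 10.0, 15.9 and 20.3 CPM with celecoxib, 10.6, 16.5 and 40.8 CPM with rofecoxib and 7.06, 15.5 and 19.2 CPM in controls (lowest, median, highest). The groups overlapped throughout, and the highest value came from rofecoxib 2, the library with the high cardiac sum. Log2 fold changes were 0.04 ± 0.23 for celecoxib against control (adjusted p = 0.945), 0.32 ± 0.23 for rofecoxib against control (adjusted p = 0.380) and -0.28 ± 0.23 for celecoxib against rofecoxib (adjusted p = 0.410). Without rofecoxib 2, rofecoxib against control gave 0.05 and celecoxib against rofecoxib -0.01. Phospholamban is abundant in heart muscle. With the cardiac marker score as a covariate, rofecoxib against control gave 0.07 ± 0.22 (adjusted p = 0.875). With group means taken off, Pln and that score gave r = 0.38 and rho = 0.13 (permutation adjusted p = 0.346 and 0.811). Without rofecoxib 2 and control 3, r was 0.13. The source of the Pln values was not tested. Of the other genes in the list of SERCA regulators, only the small membrane protein gene Erln (1810037I17Rik in the table) passed the count filter. It averaged 50.3 ± 3.75 CPM with celecoxib, 53.7 ± 2.20 CPM with rofecoxib and 50.0 ± 2.85 CPM in controls. In the main fit it passed in no comparison (adjusted p = 0.939 for celecoxib and 0.149 for rofecoxib against control, 0.139 between the drugs). With the length correction Erln passed for rofecoxib against control (adjusted p = 0.0385) and between the drugs (adjusted p = 0.0237). With the GC correction it did not (adjusted p = 0.572 and 0.820).

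Ryr2 encodes the ryanodine receptor best known from heart, which also gives rise to calcium sparks in arterial muscle. It lies on chromosome 13 (mm9, 11645168 to 12199414, minus strand) and has 28790 exon bases, longer than 99.9% of tested genes. It measured 45.9, 61.0 and 73.0 CPM with celecoxib, 50.2, 68.2 and 81.7 CPM with rofecoxib and 44.4, 48.6 and 52.1 CPM in controls (lowest, median, highest). Controls were tight, with a coefficient of variation of 5.85%, and 7 of 8 libraries of each drug exceeded every control. The means were 61.7 ± 9.39 CPM with celecoxib, 67.2 ± 13.2 CPM with rofecoxib and 48.5 ± 2.84 CPM in controls (SD over 8 libraries a group). Ryr2 rose with rofecoxib, with a log2 fold change of 0.47 ± 0.10 (1.39-fold, adjusted p = 0.0174). With celecoxib the log2 fold change was 0.35 ± 0.10 (1.27-fold) and did not pass (adjusted p = 0.0879), while DESeq2 gave 0.0390. Between the drugs it was -0.12 ± 0.10 (adjusted p = 0.415, 95% interval -0.32 to 0.08), so the 2 responses were not shown to differ.

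The Ryr2 difference with rofecoxib stayed past the threshold in each of 24 fits that left out 1 library, with log2 fold changes of 0.41 to 0.52. A correction for GC content left it at 0.47 (adjusted p = 0.0290) and a correction for exon length at 0.31 (adjusted p = 0.0299). The longest annotated Ryr2 transcript is 49.6% G and C, more than in 48.0% of tested genes. The GC correction acts through a gene's own GC content and moves a gene near the middle little. For Ryr2 it is therefore a weak check on the GC slope. The Ryr2 difference was 0.38 (adjusted p = 0.0919) without rofecoxib 7 and rofecoxib 8, 0.44 (adjusted p = 0.0515) without control 6 and rofecoxib 2, and 0.46 (adjusted p = 0.0599) with the smooth muscle marker score as a covariate. The celecoxib value passed with the length correction (adjusted p = 0.0398) and in none of the 24 fits with a library left out (adjusted p of 0.0518 to 0.163). Ryr2 made up 96.8% ± 1.20 of summed ryanodine receptor level per kilobase with celecoxib, 96.5% ± 1.53 with rofecoxib and 97.1% ± 1.24 in controls.

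Itpr1 encodes the type 1 IP3 receptor, the main IP3-gated release channel of arterial muscle, and lies on chromosome 6 (mm9, 108162910 to 108501305, plus strand). It measured 244, 294 and 321 CPM with celecoxib, 291, 323 and 431 CPM with rofecoxib and 244, 293 and 334 CPM in controls (lowest, median, highest). All 8 celecoxib libraries were below the rofecoxib mean, and rofecoxib 7 and rofecoxib 8, at 431 and 430.1 CPM, were above all others, the next being 353 CPM. Itpr1 was lower with celecoxib than with rofecoxib, with a log2 fold change of -0.28 ± 0.08 (adjusted p = 0.0192). This call was lost without rofecoxib 8 (-0.23, adjusted p = 0.0514) and without both rofecoxib 7 and rofecoxib 8 (-0.16, adjusted p = 0.140). It stood at -0.26 with the GC correction (adjusted p = 0.0493), and was lost when the cardiac marker score was added to that correction (-0.26, adjusted p = 0.0601). The longest annotated Itpr1 transcript is 49.5% G and C, more than in 47.9% of tested genes, so the GC correction is a weak check here too. Against control, rofecoxib gave 0.24 ± 0.08 (adjusted p = 0.0685), which DESeq2 called (adjusted p = 0.0416) and which passed without rofecoxib 5 (adjusted p = 0.0439) and without control 4 (adjusted p = 0.0478), and celecoxib -0.03 ± 0.08 (adjusted p = 0.868). Itpr1 was the leading IP3 receptor in every group, at 81.3% ± 1.97 of the summed level per kilobase with celecoxib, 84.5% ± 3.28 with rofecoxib and 81.7% ± 3.72 in controls.

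Ryr3 encodes a ryanodine receptor of low abundance in most tissues and lies on chromosome 2 (mm9, 112471310 to 113057455, minus strand), where its exons overlap those of Aven on the other strand. It had 6 to 59 counts per library, or 0.818, 0.996 and 2.41 CPM with celecoxib, 0.575, 1.34 and 2.75 CPM with rofecoxib and 0.275, 0.988 and 1.28 CPM in controls (lowest, median, highest). The groups overlapped, and 5 of 8 rofecoxib libraries exceeded every control. Log2 fold changes were 0.45 ± 0.31 for celecoxib against control (adjusted p = 0.462), 0.71 ± 0.30 for rofecoxib against control (adjusted p = 0.131) and -0.27 ± 0.30 for celecoxib against rofecoxib (adjusted p = 0.552). These were the widest errors of the 10 genes, and left-out libraries moved the celecoxib value to 0.22 (celecoxib 5 out).

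**Figure D3:**
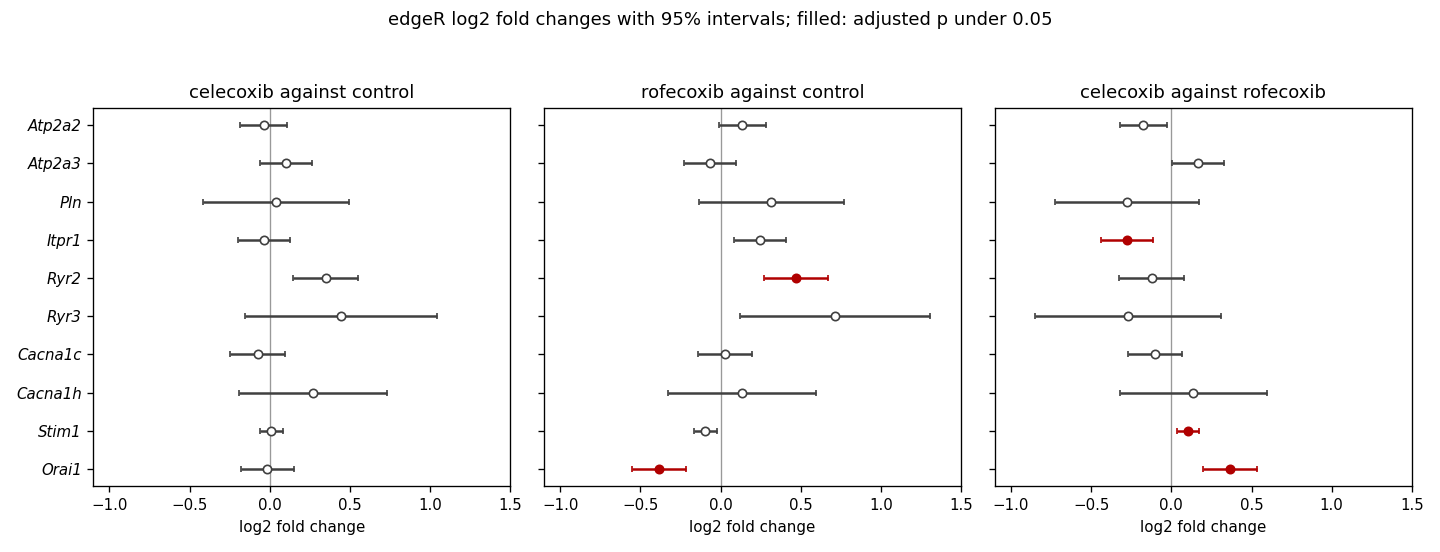
Log2 fold changes of the 10 genes in the 3 comparisons with 95% intervals; filled points have an adjusted p under 0.05 over all 14451 tested genes. Filled points are absent for celecoxib against control, and are Ryr2 (0.47) and Orai1 (-0.38) for rofecoxib against control and Itpr1 (-0.28), Stim1 (0.10) and Orai1 (0.37) for celecoxib against rofecoxib.

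Cacna1c encodes the pore of the L-type channel Cav1.2, the main route of depolarisation-driven entry in arterial muscle, and lies on chromosome 6 (mm9, 118542112 to 119146451, minus strand). It measured 57.3, 77.3 and 94.5 CPM with celecoxib, 71.9, 82.4 and 89.3 CPM with rofecoxib and 66.1, 83.2 and 86.9 CPM in controls (lowest, median, highest). The celecoxib group was widest, with 2 libraries above and 2 below every control. Log2 fold changes were -0.08 ± 0.09 for celecoxib (adjusted p = 0.691) and 0.03 ± 0.09 for rofecoxib (adjusted p = 0.861) against control, and -0.10 ± 0.09 between the drugs (adjusted p = 0.413). The 95% intervals were -0.25 to 0.09, -0.14 to 0.20 and -0.27 to 0.07.

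Cacna1h encodes the pore of the low-voltage-activated T-type channel Cav3.2 and lies on chromosome 17 (mm9, 25511028 to 25570930, minus strand), where its exons overlap those of Tpsg1 on the other strand. It measured 8.63, 18.1 and 21.5 CPM with celecoxib, 8.0, 15.8 and 21.1 CPM with rofecoxib and 6.65, 14.3 and 17.8 CPM in controls (lowest, median, highest). The groups overlapped, and the coefficient of variation was 31.2% with celecoxib, 36.6% with rofecoxib and 26.6% in controls. Log2 fold changes were 0.27 ± 0.23 for celecoxib and 0.13 ± 0.23 for rofecoxib against control (adjusted p = 0.578 and 0.745) and 0.14 ± 0.23 between the drugs (adjusted p = 0.712). The share of Cav1 and Cav3 pore subunit level per kilobase was 18.3% ± 4.87 with celecoxib, 16.8% ± 5.60 with rofecoxib and 15.5% ± 4.45 in controls.

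Stim1 encodes the calcium sensor of the store membrane that opens Orai channels, and lies on chromosome 7 (mm9, 109416136 to 109585564, plus strand). It was the steadiest of the 10 genes, at 92.6, 98.3 and 102 CPM with celecoxib, 83.3, 92.5 and 99.5 CPM with rofecoxib and 92.8, 96.6 and 103 CPM in controls (lowest, median, highest). All 8 celecoxib libraries were above the rofecoxib mean, and 5 of 8 rofecoxib libraries were below every control. Celecoxib against rofecoxib gave a log2 fold change of 0.10 ± 0.04 (1.07-fold, adjusted p = 0.0396). The call did not hold in 19 of 24 fits with a library left out, and with the GC correction the value was 0.01 (adjusted p = 0.850). Without rofecoxib 7 and rofecoxib 8 it was 0.07 (adjusted p = 0.222), and for rofecoxib against control the log2 fold change was -0.09 ± 0.04 (adjusted p = 0.0983). Celecoxib against control gave 0.01 ± 0.04 (adjusted p = 0.915). 

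Orai1 encodes a pore subunit of the store-operated channel and lies on chromosome 5 (mm9, 123464881 to 123480661, plus strand). Its longest annotated transcript is 58.6% G and C, more than in 92.4% of tested genes. It measured 12.3, 13.8 and 15.99 CPM with celecoxib, 8.80, 11.03 and 12.95 CPM with rofecoxib and 10.7, 14.2 and 16.4 CPM in controls (lowest, median, highest). The rofecoxib libraries were all below the control mean, and 3 of them below every control, while celecoxib and control libraries covered like ranges. Means were 14.0 ± 1.49 CPM with celecoxib, 10.8 ± 1.34 CPM with rofecoxib and 14.1 ± 1.74 CPM in controls (SD over 8 libraries a group). Orai1 fell with rofecoxib against control, with a log2 fold change of -0.38 ± 0.09 (0.767-fold, adjusted p = 0.0185), and was higher with celecoxib than with rofecoxib, at 0.37 ± 0.09 (1.29-fold, adjusted p = 0.00567). Celecoxib against control gave -0.01 ± 0.09 (adjusted p = 0.945).

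Both Orai1 calls held in each of 24 fits with a library left out, with values of -0.43 to -0.34 against control and 0.33 to 0.40 between the drugs. With the GC correction the values were -0.24 (adjusted p = 0.0698) and 0.18 (adjusted p = 0.0865), neither past the threshold. The call against control was also lost with the smooth muscle score as covariate (-0.36, adjusted p = 0.0731) and without both control 6 and rofecoxib 2 (-0.33, adjusted p = 0.0551), where the value between the drugs passed (0.37 and 0.33, adjusted p = 0.0066 and 0.0115). Without rofecoxib 7 and rofecoxib 8, the value against control was -0.37 (adjusted p = 0.0791) and that between the drugs 0.36 (adjusted p = 0.0258). Orai1 was less abundant than Orai3. It made up 19.2% ± 1.58 of Orai level per kilobase with celecoxib, 15.4% ± 2.15 with rofecoxib and 19.3% ± 1.803 in controls. Orai3 made up 79.1% ± 1.52 with celecoxib, 82.9% ± 2.52 with rofecoxib and 79.0% ± 1.75 in controls. The log2 ratio of Stim1 to Orai1 per kilobase averaged 0.64 ± 0.14 with celecoxib, 0.91 ± 0.22 with rofecoxib and 0.62 ± 0.17 on control chow.

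**Figure D4:**
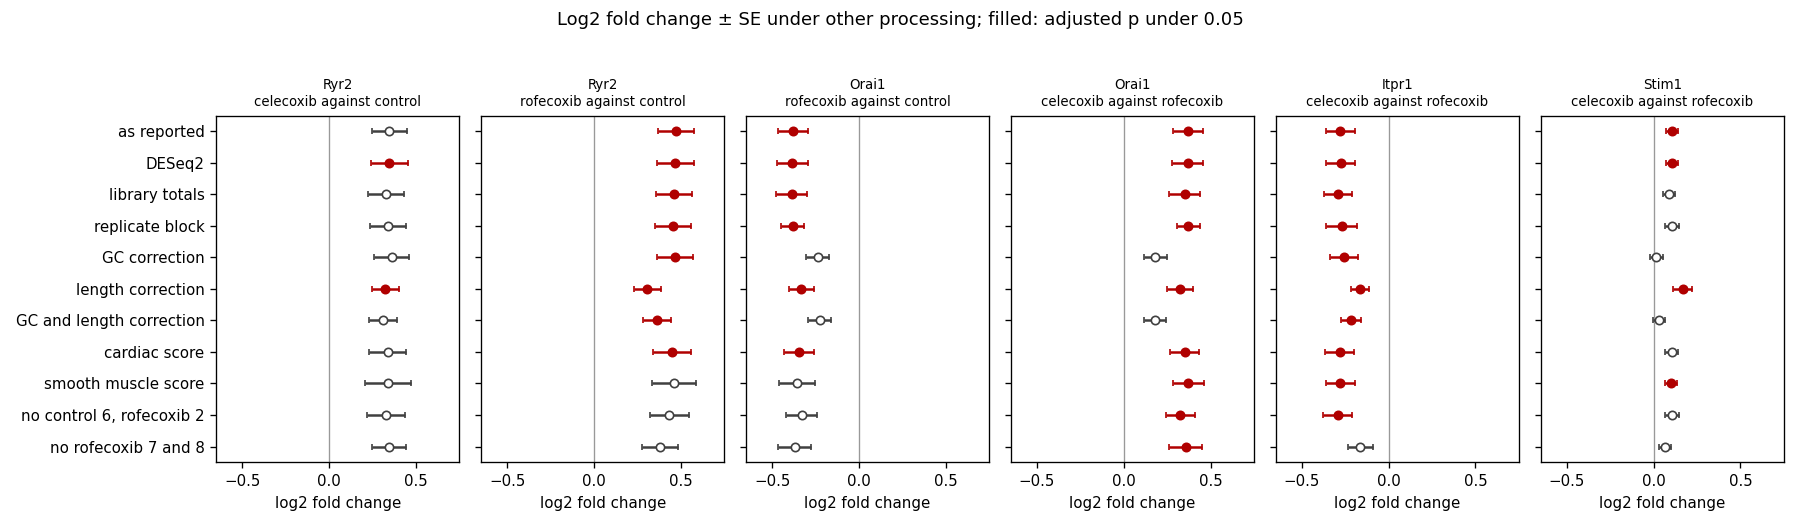
Log2 fold change ± standard error of 6 results under 11 processings (rows), filled where the adjusted p is under 0.05. Ryr2 against control with rofecoxib keeps 0.31 to 0.47, and the Orai1 and Stim1 values between the drugs shrink to 0.18 and 0.01 with the GC correction.

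RefSeq promoters matched 6 of the 10 genes by symbol. Those of Ryr2, Orai1 and Stim1 are shown because these genes passed in a comparison and differ in G and C content; the other gene that passed is Itpr1. Sequences are the 250 bases before the transcript start from RefSeq (GRCm38.p6 coordinates, gene strand, 5′ to 3′). Capitals mark matches on either strand to the GC box GGGCGG and to CCAAT; neither overlaps the other.
Ryr2, chr13:12106946-12107195, minus strand: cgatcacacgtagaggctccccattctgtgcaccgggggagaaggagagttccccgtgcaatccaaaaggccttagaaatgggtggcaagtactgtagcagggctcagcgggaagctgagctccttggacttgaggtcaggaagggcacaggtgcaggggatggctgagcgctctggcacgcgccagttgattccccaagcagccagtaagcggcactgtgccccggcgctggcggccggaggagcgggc
Orai1, chr5:123014824-123015073, plus strand: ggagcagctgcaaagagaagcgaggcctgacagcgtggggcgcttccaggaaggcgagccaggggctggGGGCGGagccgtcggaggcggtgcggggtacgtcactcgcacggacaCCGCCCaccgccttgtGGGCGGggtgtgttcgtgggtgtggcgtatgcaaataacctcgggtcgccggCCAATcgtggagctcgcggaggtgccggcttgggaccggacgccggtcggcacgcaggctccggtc
Stim1, chr7:102267569-102267818, plus strand: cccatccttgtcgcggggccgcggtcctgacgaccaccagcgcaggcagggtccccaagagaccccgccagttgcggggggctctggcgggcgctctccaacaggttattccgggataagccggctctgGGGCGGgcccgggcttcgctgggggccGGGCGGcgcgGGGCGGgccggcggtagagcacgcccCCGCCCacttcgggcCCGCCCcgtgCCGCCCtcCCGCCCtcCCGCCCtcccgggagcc
The Ryr2 window is 63.2% G and C and has no match to either motif. The Orai1 window is 70.8% G and C with 3 GC boxes and 1 CCAAT, and the Stim1 window is 78.4% G and C with 8 GC boxes. Across 32851 RefSeq promoter windows of the same length, 32.7% hold a GC box, 33.8% hold a CCAAT and the median G and C content is 52.4%. None of the 3 windows matches TATAAA (12.4% of all windows), TGACGTCA (1.55%), GGAAA (55.6%) or the CArG box (482 windows). A match describes the letters only.

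Some of the 10 genes moved together from library to library within groups. Of 45 pairs, after each group's mean was taken off, Pln and Cacna1h had the closest relation (n = 24, Pearson's r = 0.81, Spearman's rho = 0.76; permutation tests within groups, adjusted p = 0.00045 and 0.00225, the raw p for r being 1e-05, the smallest these permutations can give). It was 0.84 without rofecoxib 2 and control 3, the libraries farthest out for Pln. Libraries to leave out were chosen by the first gene of each pair alone. Itpr1 and Ryr2 followed (r = 0.68, rho = 0.69, permutation adjusted p = 0.0175 and 0.009), at 0.60 without rofecoxib 7 and rofecoxib 8, the farthest for Itpr1. No other pair passed; the nearest were Pln with Ryr3 and Itpr1 with Cacna1c (permutation adjusted p = 0.0501 for r in both).

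Several genes also followed measures of library composition within groups (n = 24, group means taken off, 80 relations adjusted together, 16 of which passed for r). With the GC slope, Itpr1 gave r = -0.82 and rho = -0.83, Ryr2 r = -0.66 and rho = -0.65, and Cacna1c r = -0.59 and rho = -0.65 (permutation adjusted p for r of 0.0008, 0.00867 and 0.0239). These stood at -0.77, -0.57 and -0.74 without celecoxib 1 and rofecoxib 8, the libraries farthest out in GC slope. Orai1 ran the other way (r = 0.67, rho = 0.74, permutation adjusted p = 0.00867 and 0.0032, 0.70 without those libraries). So did Stim1 (r = 0.57, rho = 0.47) and Cacna1h (r = 0.57, rho = 0.50), where r passed and rho did not (permutation adjusted p for r of 0.0375 in both, for rho of 0.107 and 0.0781), at 0.48 and 0.42 without them. With the length slope, the change in log2 CPM per doubling of exon length, Cacna1c gave r = 0.81, Itpr1 0.75 and Ryr2 0.61, the genes in question being longer than 98.9% of tested genes or more (permutation adjusted p of 0.00107, 0.0008 and 0.00867; rho of 0.75, 0.79 and 0.63; r of 0.74, 0.69 and 0.68 without celecoxib 8 and control 6). Orai1 gave r = -0.65 and rho = -0.75 with it (permutation adjusted p = 0.0131 and 0.0032, -0.69 without those libraries), and Atp2a2 r = 0.56 and rho = 0.45 (permutation adjusted p = 0.0426 and 0.140, 0.40 without them). Pln and Cacna1h followed the smooth muscle marker score with r of 0.58 each (permutation adjusted p of 0.0239 and 0.0299; rho of 0.60 and 0.51; 0.57 and 0.58 without celecoxib 8 and control 4), rho passing for Pln and not for Cacna1h (adjusted p = 0.0264 and 0.0734). Atp2a2 went against the Schwann cell and nerve score (r = -0.64, rho = -0.51, permutation adjusted p = 0.0123 and 0.0734, -0.48 without celecoxib 7 and control 6) and the endothelial score (r = -0.54, rho = -0.52, permutation adjusted p = 0.0190 and 0.0685, -0.48 without rofecoxib 1 and rofecoxib 5). Atp2a3 went against the brown adipocyte score (r = -0.44, rho = -0.41, permutation adjusted p = 0.0411 and 0.124, -0.35 without control 4 and control 6). The score over 20 smooth muscle genes was higher by 0.17 log2 units with celecoxib and by 0.15 with rofecoxib than in controls (exact permutation test, adjusted p = 0.0513 for both). The fibroblast score was lower by 0.31 log2 units with rofecoxib than in controls and higher by 0.34 with celecoxib than with rofecoxib (exact permutation test, adjusted p = 0.0513 for both). None of the 10 marker lists passed, and the other comparisons had adjusted p-values of 0.0942 or more. The part of cell composition in the gene differences was not tested beyond the covariate fits. Those fits used the smooth, cardiac and skeletal muscle and brown adipocyte scores. Neither they nor the relations above used the fibroblast, macrophage, white adipocyte or lymphocyte and platelet scores.

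**Figure D5:**
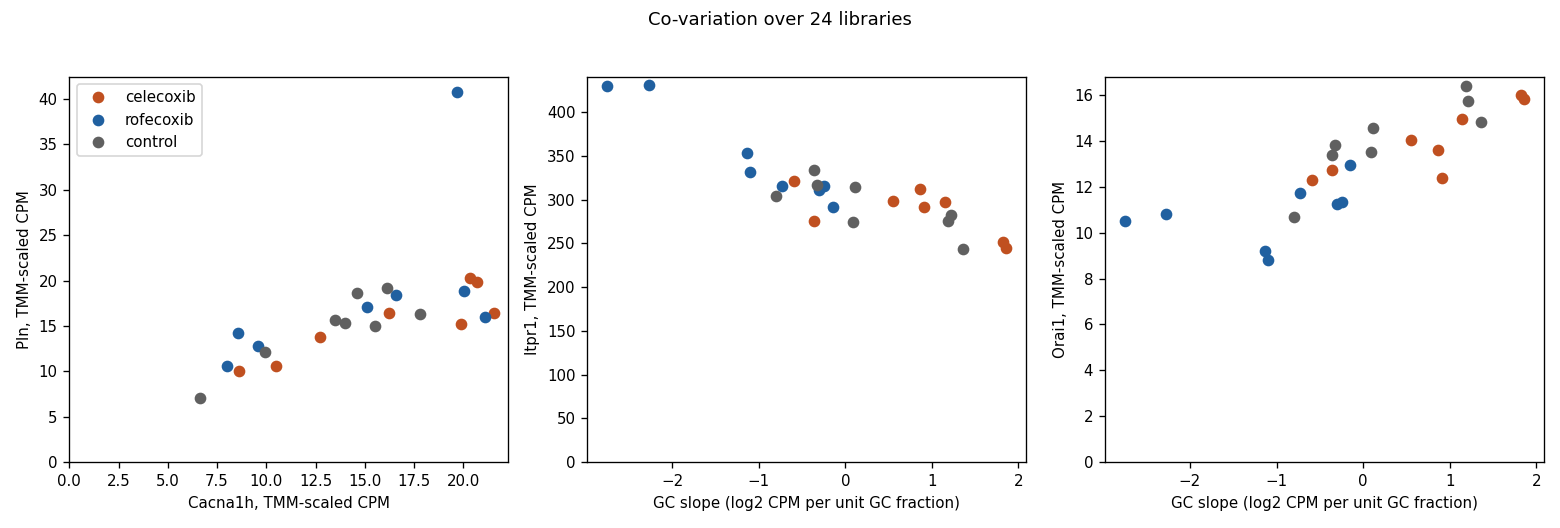
Left, Pln against Cacna1h in TMM-scaled CPM over 24 libraries; middle and right, Itpr1 and Orai1 in TMM-scaled CPM against the GC slope of the library. Rofecoxib 2 stands apart for Pln at 40.8, rofecoxib 7 and rofecoxib 8 stand at the left of both slope panels, and the Orai1 values with rofecoxib stay at 12.95 or below.

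The genes whose within-group pattern was closest to each of the 10 (Pearson's r over 24 libraries after group means were taken off, genes of at least 5 CPM, described without a test) were as follows. Atp2a2 was closest to Vezf1 (0.91), Gucy1b3 (0.87) and Tspan2 (0.86), and Atp2a3 to Srsf4 (0.80), Cuedc1 (0.78) and Adamts10 (0.77). Pln and Cacna1h shared Nrip2 (0.87 and 0.88) and Kcna5 (0.82 and 0.86) among their closest, with Timp4 (0.83) for Pln and Tbx2 (0.91) for Cacna1h. Itpr1 was closest to Syne1, Edem3 and Zzz3 (0.92 each), and Ryr2 to Fyco1 (0.82), Ammecr1 (0.82) and Ercc6 (0.81). Ryr3 was closest to Agtr1b (0.92), Hoxa10 (0.86) and Rgs5 (0.85). For Cacna1c, Mum1l1 (0.87) and Tacc1 (0.85) were among the closest. Stim1 was closest to Gtf2i (0.91), Iqsec1 (0.85) and Pip5k1c (0.84), and Orai1 to Rpusd1 (0.86), Paqr6 (0.82) and Snx32 (0.80). Without rofecoxib 2, 7 and 8 and control 6, the correlations of Atp2a3 were 0.63, 0.55 and 0.55.

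Beyond the 10, 91 tested genes of calcium lists were read from the same fit, and 1 was higher with celecoxib against control, 1 higher and 2 lower with rofecoxib against control, and 12 higher and 8 lower with celecoxib against rofecoxib, where 1.41%, 5.3% and 22.7% of all tested genes passed. With the GC correction these became 1 and 0, 0 and 1, and 7 and 3, where 213, 148 and 1192 of all 14451 tested genes passed. Without rofecoxib 7 and rofecoxib 8 they were 0 and 0, 0 and 0, and 5 and 2 of 93 tested. In that fit 210, 37 and 1326 of all 14577 tested genes passed. By list, and counting the 10 genes where they belong, calls were as follows. The 4 tested SERCA genes and regulators gave none in the main fit. Among 8 tested export genes (PMCA, NCX and SPCA pumps and exchangers), celecoxib against rofecoxib gave 2 lower: Atp2b4, a plasma membrane pump (-0.26 ± 0.08, adjusted p = 0.0225) and Slc8a1, the sodium-calcium exchanger NCX1 (-0.56 ± 0.19, adjusted p = 0.0387). Both were lost with the GC correction (adjusted p = 0.102 and 0.120), which called Atp2c1 alone in this list (0.18, adjusted p = 0.0243), and without rofecoxib 7 and rofecoxib 8 (adjusted p = 0.0705 and 0.203). Neither drug gave a call against control, where Slc8a3 (-0.43, adjusted p = 0.226) with celecoxib and Atp2b2 (-0.46, adjusted p = 0.141) with rofecoxib had the smallest p. Of 13 tested release channel genes, Ryr2 was the call for rofecoxib against control, and Itpr1 with Fkbp1a, the FKBP12 protein that binds these channels (0.12 ± 0.04, adjusted p = 0.0427), were the calls between the drugs. Fkbp1a did not pass with the GC correction (0.03, adjusted p = 0.747) or without rofecoxib 7 and rofecoxib 8 (adjusted p = 0.243). The smallest p among the rest was Fkbp1a with celecoxib (0.12, adjusted p = 0.144) and Asph with rofecoxib (0.26, adjusted p = 0.0597) against control.

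Of 10 tested store buffer genes, Calr (0.20 ± 0.05, adjusted p = 0.0118) and Rcn3 (0.15 ± 0.05, adjusted p = 0.0453) were higher with celecoxib than with rofecoxib. Over all tested genes, 11.5% were called higher and 11.2% lower in that comparison. Calr encodes calreticulin, a luminal calcium binding chaperone. Calr alone passed with the GC correction (0.21, adjusted p = 0.0348, and 0.450 for Rcn3). Neither passed with the length correction (adjusted p = 0.0527 and 0.225) or without rofecoxib 7 and rofecoxib 8 (adjusted p = 0.0645 and 0.198). Against control, Casq1 with celecoxib (0.32, adjusted p = 0.253) and Rcn3 with rofecoxib (-0.17, adjusted p = 0.0516) had the smallest p. Of 11 tested store-operated entry genes, the calls were Orai1 and Stim1 alone, and the CRAC regulator Cracr2a (Efcab4b in the table, at 0.278 ± 0.154 CPM with celecoxib, 0.259 ± 0.122 with rofecoxib and 0.517 ± 0.119 in controls) had the smallest p of the others against control, at -0.87 with celecoxib (adjusted p = 0.130) and -0.98 with rofecoxib (adjusted p = 0.0547). Between the drugs Stimate (Tmem110 in the table) had the smallest, at -0.21 (adjusted p = 0.0556). Stimate passed there with the GC correction (-0.29, adjusted p = 0.0446), where Orai1 and Stim1 did not. It also passed with the length correction (adjusted p = 0.0484), and not without rofecoxib 7 and rofecoxib 8 (adjusted p = 0.0608). The length correction also called Cracr2a for rofecoxib against control (adjusted p = 0.0467). Of 8 tested mitochondrial uptake genes, the pore gene Mcu (Ccdc109a in the table) was higher with celecoxib than with rofecoxib (0.23 ± 0.06, adjusted p = 0.0103) and Micu2 (Efha1) lower (-0.21 ± 0.06, adjusted p = 0.0199). Ccdc109a passed with the GC correction (adjusted p = 0.0145) and not without rofecoxib 7 and rofecoxib 8 (adjusted p = 0.0570), and for Efha1 it was the other way round (adjusted p = 0.117 and 0.0408). Against control neither drug gave a call, and Letm1 had the smallest p with celecoxib (-0.20, adjusted p = 0.228).

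Of 15 tested voltage-gated channel genes, 4 were higher and 2 lower with celecoxib than with rofecoxib. Over all tested genes, 11.5% were called higher and 11.2% lower in that comparison. Cacna1g, which encodes the T-type pore Cav3.1, averaged 17.1 ± 2.24 CPM with celecoxib, 10.996 ± 2.04 CPM with rofecoxib and 14.9 ± 3.496 CPM in controls. It was higher with celecoxib than with rofecoxib (0.64 ± 0.13, adjusted p = 0.00259) with no overlap of the groups, which 1.67% of all tested genes showed, and lower with rofecoxib than in controls (-0.44 ± 0.13, adjusted p = 0.0495). Cacna1a, of the P/Q-type pore, was also lower with rofecoxib than in controls (-0.43 ± 0.10, adjusted p = 0.0196) and higher with celecoxib than with rofecoxib (0.35 ± 0.10, adjusted p = 0.0151). The GC correction left 0.48 (adjusted p = 0.0320) for Cacna1g and 0.18 (adjusted p = 0.329) for Cacna1a between the drugs, and neither passed against control with it (adjusted p = 0.219 and 0.166). Without rofecoxib 7 and rofecoxib 8, Cacna1g and Cacna1a passed between the drugs (adjusted p = 0.0189 and 0.0313) and not against control (adjusted p = 0.192 and 0.0620). The auxiliary subunit genes Cacnb3 (0.33 ± 0.09, adjusted p = 0.0165) and Cacna2d4 (-0.87 ± 0.28, adjusted p = 0.0301) completed the 4 calls with the smallest p, and Cacna2d4 (-0.74, adjusted p = 0.182) led with celecoxib against control. Cacna2d4 was of low abundance, at 0.298 ± 0.152 CPM with celecoxib, 0.547 ± 0.153 with rofecoxib and 0.499 ± 0.200 in controls. With the GC correction Cacna2d4 passed (adjusted p = 0.0491) and Cacnb3 did not (adjusted p = 0.419), and without rofecoxib 7 and rofecoxib 8 neither did (adjusted p = 0.132 and 0.0879).

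Of 11 tested other entry channels, 3 were higher with celecoxib than with rofecoxib, where 11.5% of all tested genes were called higher. They were Trpv4, a channel opened by stretch and osmotic change (0.79 ± 0.16, adjusted p = 0.00236, and 0.60 with the GC correction, adjusted p = 0.0122), Pkd1 (0.30 ± 0.07, adjusted p = 0.00599) and the purine receptor gene P2rx5 (0.33 ± 0.10, adjusted p = 0.0223). Pkd1 and P2rx5 did not pass with the GC correction (adjusted p = 0.240 and 0.173), and P2rx5 did not without rofecoxib 7 and rofecoxib 8 (adjusted p = 0.0811), where Pkd1 and Trpv4 did (adjusted p = 0.0258 and 0.0150). Against control, Trpv4 with celecoxib (0.53, adjusted p = 0.0870) and Trpm7 with rofecoxib (0.22, adjusted p = 0.0672) had the smallest p. Of 21 tested calmodulin and calcineurin genes, Camkk1, a kinase switched on by calmodulin, was higher with celecoxib than in controls (0.45 ± 0.11, adjusted p = 0.04996) and Calm2, a calmodulin gene, higher with rofecoxib than in controls (0.15 ± 0.04, adjusted p = 0.0404). Camkk1 passed there with the GC correction (adjusted p = 0.0396) and not without rofecoxib 7 and rofecoxib 8 (adjusted p = 0.0506), and Calm2 passed under neither (adjusted p = 0.583 and 0.0812). Between the drugs Camkk1 was higher (0.46 ± 0.11, adjusted p = 0.00788) and Calm2 (-0.18 ± 0.04, adjusted p = 0.00517), the calcineurin inhibitor gene Rcan1 (-0.55 ± 0.18, adjusted p = 0.0316) and the calcineurin subunit gene Ppp3cb (-0.17 ± 0.06, adjusted p = 0.0322) were lower with celecoxib. With the GC correction Calm2 and Ppp3cb did not pass between the drugs (adjusted p = 0.579 and 0.855), and without rofecoxib 7 and rofecoxib 8 Rcan1 and Ppp3cb did not (adjusted p = 0.102 and 0.0657).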

How the data were processed

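The authors deposited whole-number counts per gene for 24 libraries with symbols and mm9 coordinates. The submitters' processing notes list the tools CASAVA 1.8.2 and STAR 2.5.1b. No source used here states how reads were assigned to genes, or whether strand was used, so reads from genes that overlap on opposite strands cannot be told apart. Totals were nearly equal in the deposited counts (range 0.164%), by a step that no source used here describes. Per the labels' protocols, polyA libraries were built over 3 days, with no day named per library. Sample titles carry running numbers that go in blocks by group, with the controls set apart. What these numbers count is not stated. If they follow an order of handling, that order cannot be told apart from the chow group. The animal of each library is not named, so p-values measure the spread between these samples.

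From the counts, edgeR 4.0.16 (R 4.3.3) was run on all 24 libraries together with a mean for each group, TMM factors, its group-wise low-count filter and robust dispersion, with 21 residual degrees of freedom and Benjamini-Hochberg adjustment over 14451 genes; genes with adjusted p under 0.05 were called. The common biological coefficient of variation was 0.16. On simulated counts, 27.1%, 74.6% and 91.4% of genes changed by 0.25, 0.5 and 1 log2 units were recovered for celecoxib against control. In that simulated comparison 8 unchanged genes were also called. The simulated counts were independent between genes and held no GC or length slope of a library, so rates in the real libraries may differ. DESeq2 1.42.0 and limma 3.58.1 were alternatives. Log2 CPM for correlations and marker scores used a prior count of 2. Exon length (all annotated exons of a gene merged) and GC content (longest transcript) came from GENCODE M21 by Ensembl identifier, for 97.4% of tested genes. Both were corrected with a smooth curve per library. Exact permutation tests were two-sided, and correlations used 100000 permutations.

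The 10 genes and all gene lists were chosen with earlier results of these data known. Named genes are the 10, the called genes with the 4 smallest p in each calcium list (the smallest where none was called), and the 3 closest genes by correlation; 2 genes that this rule names are not reported here. Alternatives without rofecoxib 7 and 8 together, with GC correction joined to that or to the cardiac score, and with length correction were chosen after seeing the data. Libraries with the same number in different groups were not treated as pairs in the main fit. Same-numbered libraries correlated above 0.1 in 5, 2 and 2 of 8 pairs, and were the best match in 2, 2 and 0. These counts cannot exclude a pairing, and fits with the replicate number as a block are given below.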

Additional observations from a re-analysis of the deposited data

Results flagged for a closer look

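Of 30 sets of 8 values (10 genes in 3 groups), 3 held a highest library far from its neighbours by Dixon's test; chance gives about 1 in 20 sets. Atp2a2 stood at 1209.6 CPM in rofecoxib 1, the next rofecoxib library being at 1068 CPM. Pln stood at 40.8 CPM in rofecoxib 2, the next being at 18.9 CPM, and that library also had the highest cardiac marker sum of 820 CPM. Ryr3 stood at 2.41 CPM in celecoxib 5, the next being at 1.41 CPM.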

How the results depend on the processing

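Over 24 left-out-library fits and 22 other settings, 1265 of 1380 log2 fold changes of the 10 genes kept direction and side of the threshold, 53 fell short of it, 7 newly passed and 55 changed sign. Of the 55, 39 lay within 1 standard error of 0 with either sign and did not pass; the other 16 are given below. Leaving out a library gave 42 to 312 called genes for celecoxib and 170 to 1121 for rofecoxib against control, 2147 to 3739 between the drugs, and 0, 2 to 3 and 1 to 3 of the 10 genes; the lowest counts of genes were without celecoxib 5, control 7 and rofecoxib 8 in that order.

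Called genes for celecoxib against control numbered 481 by DESeq2 (1 of the 10), 86 with no filter, 88 with only those groups, 7 with the brown adipocyte score and 0 with the smooth muscle score as covariate, and 234 with the length correction (1 of the 10). For rofecoxib against control they numbered 1575 by DESeq2 (3 of the 10), 294 with no filter, 461 with only those groups, 308, 409 and 164 with the cardiac, skeletal and smooth muscle scores (0 of the 10 with the last), 215 without control 6 and rofecoxib 2 (0), 148 with the GC correction (1), 108 with it and the replicate block, 158 with GC and length correction (1), 37 without rofecoxib 7 and 8 (0), 12 with the GC correction as well (0) and 67 with GC correction and cardiac score (0). Between the drugs they numbered 1192 with the GC correction (1), 1284 with it and the replicate block (1), 1287 with GC and length correction (1), 1326 without rofecoxib 7 and 8 (1), 475 with the GC correction as well (0) and 957 with GC correction and cardiac score (0). The cause of these shifts was not tested. The replicate block alone gave 187, 653 and 3193 genes and 0, 2 and 2 of the 10, Stim1 being lost (adjusted p = 0.0596). With the GC correction and the replicate block, Orai1 passed against control (-0.24, adjusted p = 0.0448) and between the drugs (0.18, adjusted p = 0.0386), and Itpr1 did not pass between the drugs (-0.25, adjusted p = 0.0677).

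Of those 16, signs changed with the smooth muscle score for Atp2a3 (-0.057), Pln (-0.51), Ryr3 (-0.069) and Cacna1h (-0.29) with celecoxib, and Pln (-0.18), Cacna1c (-0.10) and Cacna1h (-0.35) with rofecoxib against control. They changed with the length correction for Cacna1c with rofecoxib against control (-0.092), and between the drugs for Ryr2 (0.017) and Cacna1c (0.00098). They changed with GC correction and cardiac score for Pln (-0.042 with rofecoxib against control, 0.040 between the drugs), and with GC correction without rofecoxib 7 and 8 for Atp2a3 (0.12 with rofecoxib against control, -0.057 between the drugs), Cacna1h (-0.23) and Stim1 (-0.0013). None of these values passed.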

Other observations

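Ptgs2, which encodes COX-2, the enzyme both drugs inhibit, averaged 20.9 ± 4.05 CPM with celecoxib, 43.7 ± 7.46 CPM with rofecoxib and 36.6 ± 16.7 CPM in controls (SD, n = 8 each). Its log2 fold change was -0.81 ± 0.23 for celecoxib against control (edgeR, adjusted p = 0.0696), 0.26 ± 0.22 for rofecoxib against control (adjusted p = 0.471) and -1.06 ± 0.23 for celecoxib against rofecoxib (adjusted p = 0.00348).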
